A study of Mus musculus with 3 samples.

Results

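DNA replication genes and genes that supply its nucleotides were followed in 3 dendritic cell subsets of mouse spleen. The 53 genes were listed by function: origin licensing and firing, the replication fork, deoxynucleotide synthesis and the chromatin that is rebuilt behind the fork. Their values were read from the probe sets whose annotated gene symbol is one of the 53, among 18194 genes on the array. A probe set of its own was found for 52 genes (116 probe sets in all), and 51 of these gave a signal above background on at least 1 array. Orc1 lay below background on every array, and Chaf1a is not analysed here.

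The subsets were plasmacytoid dendritic cells (pDC), CD8+ conventional dendritic cells (CD8+ cDC) and CD11b+ conventional dendritic cells (CD11b+ cDC). All 3 came from untreated female C57bl/6 mice aged 6 to 8 weeks, and the labels name no transgene or deletion. Spleen cells were depleted of T and B cells on magnetic beads and sorted on a flow cytometer. Each subset was a pool of 5 to 8 mice, and biotin-labelled cRNA made from 20 ng was put on 1 Affymetrix array per subset. With 1 array per subset there is no spread between samples, so no p-value is given, and the animals pooled, the sort, the labelling and the hybridization cannot be told apart from the cell type. A gene was called higher or lower at 2-fold or more if the brighter array exceeded a background level of 111, which is set by receptor genes that spleen cells should not express. Against an array below that level the fold is written as "at least".

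Before a cell can copy its DNA, the origin recognition complex, Cdc6 and Cdt1 load the MCM2-7 helicase onto origins while Geminin blocks reloading later in the cycle. In S phase the kinase Cdc7, Cdc45 and the GINS complex switch the helicase on, polymerase alpha with primase lays the primers, and polymerases epsilon and delta extend the leading and lagging strands on the PCNA clamp. Ribonucleotide reductase, thymidylate synthase and thymidine kinase feed the fork, and many of these genes are known targets of E2F transcription factors, which are released when cells pass from G1 into S phase. Conventional dendritic cells of mouse spleen are known to include dividing cells, whereas pDC are known to leave the bone marrow as largely resting cells.

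E2F factors prefer short GC-rich sites next to a run of T or A, and promoter stretches are shown for members with such letters because most members differed in the same direction. The letters TTTCGCGC, TTTGGCGC, TTTCCCGC and TTTGCCGC were searched on both strands, counting overlapping matches, from 250 bases before to 50 bases after each start in RefSeq's mouse promoters (GRCm38.p6). Of the 45 members with a promoter in that table, 18 (40.0%) held a match, against 704 of 27025 genes (2.6%) in the whole table. The stretches below lie upstream of the start, read 5′ to 3′ on the gene's strand, with the matching letters in capitals. Capitals that read GCGGGAAA, GCGCGAAA or GCGCCAAA are matches on the opposite strand. The first 7 are of members that were lower in pDC than in CD11b+ cDC, the next 3 are of members that were not called, and the last is of Orc1, which was not measured. These 11 are all the members with a match wholly upstream of the start.
Mcm5: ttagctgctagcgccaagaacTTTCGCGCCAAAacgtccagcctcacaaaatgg
Mcm6: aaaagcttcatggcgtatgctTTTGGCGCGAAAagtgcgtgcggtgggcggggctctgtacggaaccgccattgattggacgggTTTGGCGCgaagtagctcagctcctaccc
Mcm7: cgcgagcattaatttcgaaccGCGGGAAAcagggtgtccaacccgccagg
Cdc6: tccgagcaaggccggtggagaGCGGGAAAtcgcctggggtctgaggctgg
Gins3: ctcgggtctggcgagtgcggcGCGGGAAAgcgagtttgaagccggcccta
Pola1: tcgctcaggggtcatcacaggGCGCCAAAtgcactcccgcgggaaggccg
Uhrf1: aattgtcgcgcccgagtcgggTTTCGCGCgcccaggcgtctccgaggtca
Orc3: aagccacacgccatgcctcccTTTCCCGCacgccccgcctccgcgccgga
Rfc3: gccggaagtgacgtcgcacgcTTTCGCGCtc
Dnmt1: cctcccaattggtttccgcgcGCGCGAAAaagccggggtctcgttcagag
Orc1: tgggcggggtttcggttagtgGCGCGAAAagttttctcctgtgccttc
The Mcm6 stretch (chr1:128359724-128359836, minus strand) holds 3 matches, 2 of which overlap, with first bases at -110, -106 and -47 relative to the start. The Mcm5 stretch (chr8:75109335-75109388, plus strand) holds 2 that overlap, and the Mcm7 stretch lies at chr5:138172020-138172069 on the minus strand. The others are at chr11:98907992-98908041 (Cdc6, plus), chr8:95633497-95633546 (Gins3, plus), chrX:93632265-93632314 (Pola1, minus), chr17:56304107-56304156 (Uhrf1, plus), chr4:34614955-34615004 (Orc3, minus), chr5:151651209-151651239 (Rfc3, minus), chr9:20952814-20952863 (Dnmt1, minus) and chr4:108579406-108579453 (Orc1, plus). By call, 11 of 25 members lower in pDC than in CD11b+ cDC held a match and 6 of 18 measured members without a call held one. CCAAT boxes (CCAAT, both strands) were present in 28 of 45 members and in 41.1% of all genes of the table, and the CHR letters TTTGAA or TTCGAA of late cell cycle promoters in 10 of 45 and in 21.7%. A match is a description of letters and shows no binding.

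Most replication genes gave their lowest signal in pDC and their highest in CD11b+ cDC. Of the 51 measured members, 31 were at least 2-fold lower in pDC than in CD11b+ cDC and 0 higher, where the same rule called 14.3% of 10796 measured genes lower and 15.0% higher. Against CD8+ cDC, 26 of 51 were lower in pDC and 0 higher, where 14.8% of 10821 genes were lower and 16.0% higher. The median log2 difference over members was -1.42 for pDC minus CD11b+ cDC (95% binomial interval over members -2.32 to -0.80), and it was -1.04 when CD8+ cDC were subtracted from pDC (-1.94 to -0.40), with medians over all measured genes of 0.01 and 0.00. The interval describes the genes of the list, not animals. The same pDC array enters both comparisons, so they are not separate evidence. At least 10-fold lower in pDC than in CD11b+ cDC were 11 members (21.6%), against 3.84% of measured genes. A smaller share of dividing cells and less RNA of these genes per cell cannot be told apart in such pooled samples.

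The array order was the same for most members. The pDC array was the dimmest for 41 of 51 members, against 33.9% of all 11015 genes above background on any array, and the CD11b+ cDC array was the brightest for 42, against 28.7%. Within the list the log2 differences of pDC minus CD11b+ cDC ran from -7.87 for Dna2 to 0.85 for Pold2.

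**Figure D1:**
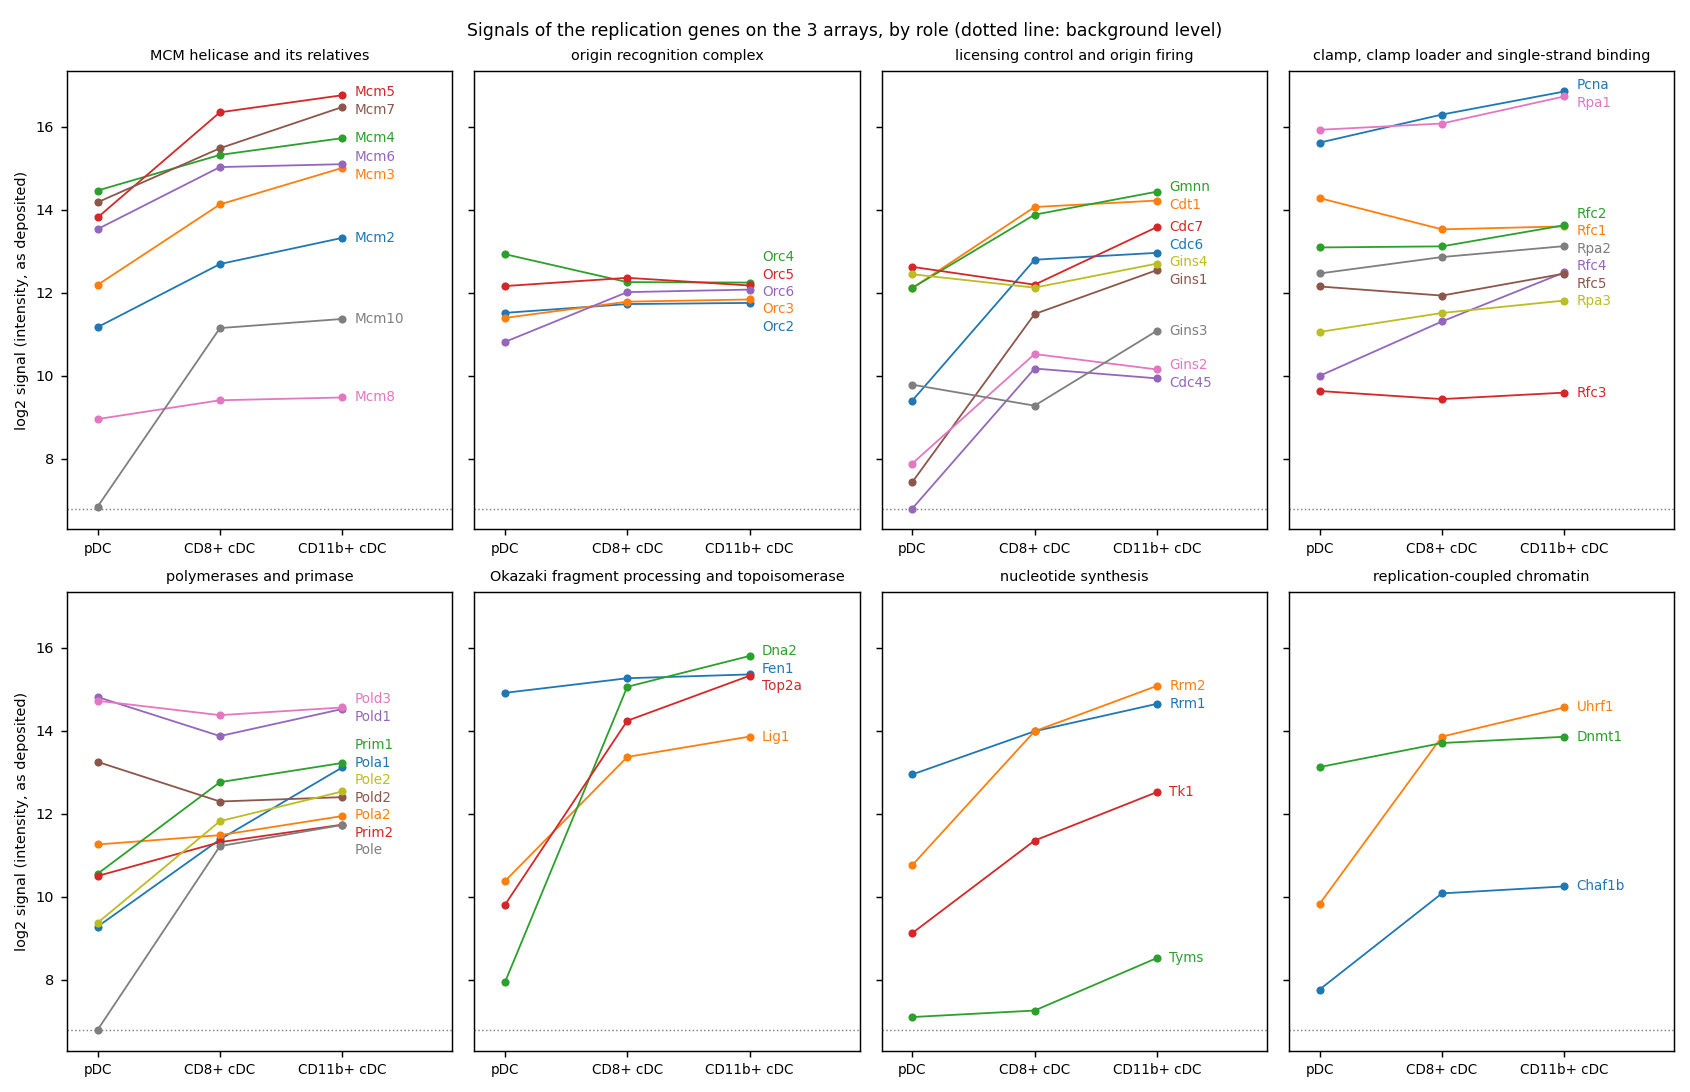
Log2 signal (intensity as deposited, values below background set to it) of the 51 measured members on the pDC, CD8+ cDC and CD11b+ cDC arrays, 1 point per gene and array, lines joining a gene's points, panels by role and a dotted line at the background level. The MCM, nucleotide synthesis and Okazaki panels climb from left to right for each gene. In the firing panel Cdc6, Cdt1, Gmnn and Gins1 climb at each step, Cdc7, Gins3 and Gins4 are lowest in CD8+ cDC, and Cdc45 and Gins2 are highest there, while Orc2, Orc3 and Orc5 stay nearly level and Orc4 and the Pold genes start highest in pDC. Heights of different genes are not comparable.

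Of the 8 MCM genes, 7 (87.5%) were lower in pDC than in CD11b+ cDC and 6 (75.0%) than in CD8+ cDC. Of all measured genes, 14.3% and 14.8% were lower in these comparisons. Mcm2 gave 2298.5 in pDC, 6597 in CD8+ cDC and 10216 in CD11b+ cDC, and Mcm5 gave 14362 in pDC, 83205.5 in CD8+ cDC and 110696 in CD11b+ cDC. Mcm3 was 7.06-fold lower in pDC than in CD11b+ cDC and 3.84-fold lower than in CD8+ cDC, and Mcm7 4.91-fold and 2.47-fold. Mcm6 followed at 2.96-fold and 2.82-fold, while Mcm4 was 2.4-fold lower than in CD11b+ cDC and, at 1.81-fold, not called against CD8+ cDC. All 6 subunits of the hexamer thus lay on one side, within a log2 range of 1.69 (from -2.95 for Mcm5 to -1.26 for Mcm4) for pDC minus CD11b+ cDC. Mcm10, which links the activated helicase to primase, gave 115 in pDC, 2264 in CD8+ cDC and 2637 in CD11b+ cDC, so its pDC value stood just above background. It was 23.0-fold lower in pDC than in CD11b+ cDC and 19.8-fold lower than in CD8+ cDC. Mcm8, a paralog used in recombination repair and not part of the hexamer, gave 495 in pDC, 678 in CD8+ cDC and 710.4 in CD11b+ cDC and was not called.

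Of the 5 measured genes of the origin recognition complex, which marks origins, 1 was lower in pDC than in either conventional subset and 0 were higher. The 1 of 5 is 20.0%, near the 14.3% and 14.8% of all measured genes called lower than in CD11b+ and CD8+ cDC. Orc2 gave 2918.5 in pDC, 3382 in CD8+ cDC and 3447 in CD11b+ cDC, Orc3 2683.5 in pDC, 3519 in CD8+ cDC and 3650.3 in CD11b+ cDC, and Orc5 4567 in pDC, 5242 in CD8+ cDC and 4611.5 in CD11b+ cDC. Orc4 was brightest in pDC, with 7780.4 in pDC, 4879 in CD8+ cDC and 4841 in CD11b+ cDC, 1.59-fold above CD8+ cDC and 1.61-fold above CD11b+ cDC, which did not reach the rule. Orc4 has 3 further probe sets, and at 2 of them the pDC signal was 2.02-fold and 2.01-fold above the CD8+ cDC signal. Orc6, the subunit bound least tightly to the others, was the 1 called member, at 1796 in pDC, 4128 in CD8+ cDC and 4306 in CD11b+ cDC, which is 2.4-fold lower in pDC than in CD11b+ cDC and 2.3-fold lower than in CD8+ cDC. Orc1, the largest subunit and the one whose protein rises and falls with the cycle in mammalian cells, could not be measured, the brighter of its probe sets reading 67.8 in pDC, 69.3 in CD8+ cDC and 72.3 in CD11b+ cDC.

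Of the 9 licensing and firing genes, 7 (77.8%) were lower in pDC than in CD11b+ cDC and 6 (66.7%) than in CD8+ cDC. The shares of all measured genes were 14.3% and 14.8%. Cdc6, the loader that brings MCM2-7 to origins, gave 674 in pDC, 7089.8 in CD8+ cDC and 7957 in CD11b+ cDC. Its partner Cdt1 gave 4411 in pDC, 17104 in CD8+ cDC and 19054 in CD11b+ cDC, and Gmnn, the gene of the Cdt1 inhibitor Geminin, 4433.5 in pDC, 15049 in CD8+ cDC and 22106 in CD11b+ cDC. The loader and its inhibitor were therefore both lower in pDC, Cdt1 by 4.32-fold and Gmnn by 4.99-fold against CD11b+ cDC. Cdc45 lay at background in pDC (89.3) and gave 1152 in CD8+ cDC and 977.5 in CD11b+ cDC, at least 10.4-fold lower in pDC than in CD8+ cDC and at least 8.79-fold lower than in CD11b+ cDC. A second, dimmer Cdc45 probe set read 203 in pDC, 226 in CD8+ cDC and 242 in CD11b+ cDC and called no difference.

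The 4 GINS genes encode 1 complex, yet their signals did not differ alike. Gins1 gave 173 in pDC, 2862.5 in CD8+ cDC and 5962 in CD11b+ cDC, and Gins2 gave 236 in pDC, 1468 in CD8+ cDC and 1134 in CD11b+ cDC. Gins3 gave 879.8 in pDC, 619 in CD8+ cDC and 2165 in CD11b+ cDC, so that CD8+ cDC and not pDC was the dimmest. Gins4 gave 5562.5 in pDC, 4448 in CD8+ cDC and 6646 in CD11b+ cDC and was not called in any pair. The log2 difference of pDC minus CD11b+ cDC thus ranged from -5.11 for Gins1 to -0.26 for Gins4. Cdc7, the kinase that triggers firing, had the order of Gins3, with 6298 in pDC, 4675 in CD8+ cDC and 12241.5 in CD11b+ cDC. It was 2.62-fold lower in CD8+ cDC than in CD11b+ cDC, and the pDC signal stood between them.

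**Figure D2:**
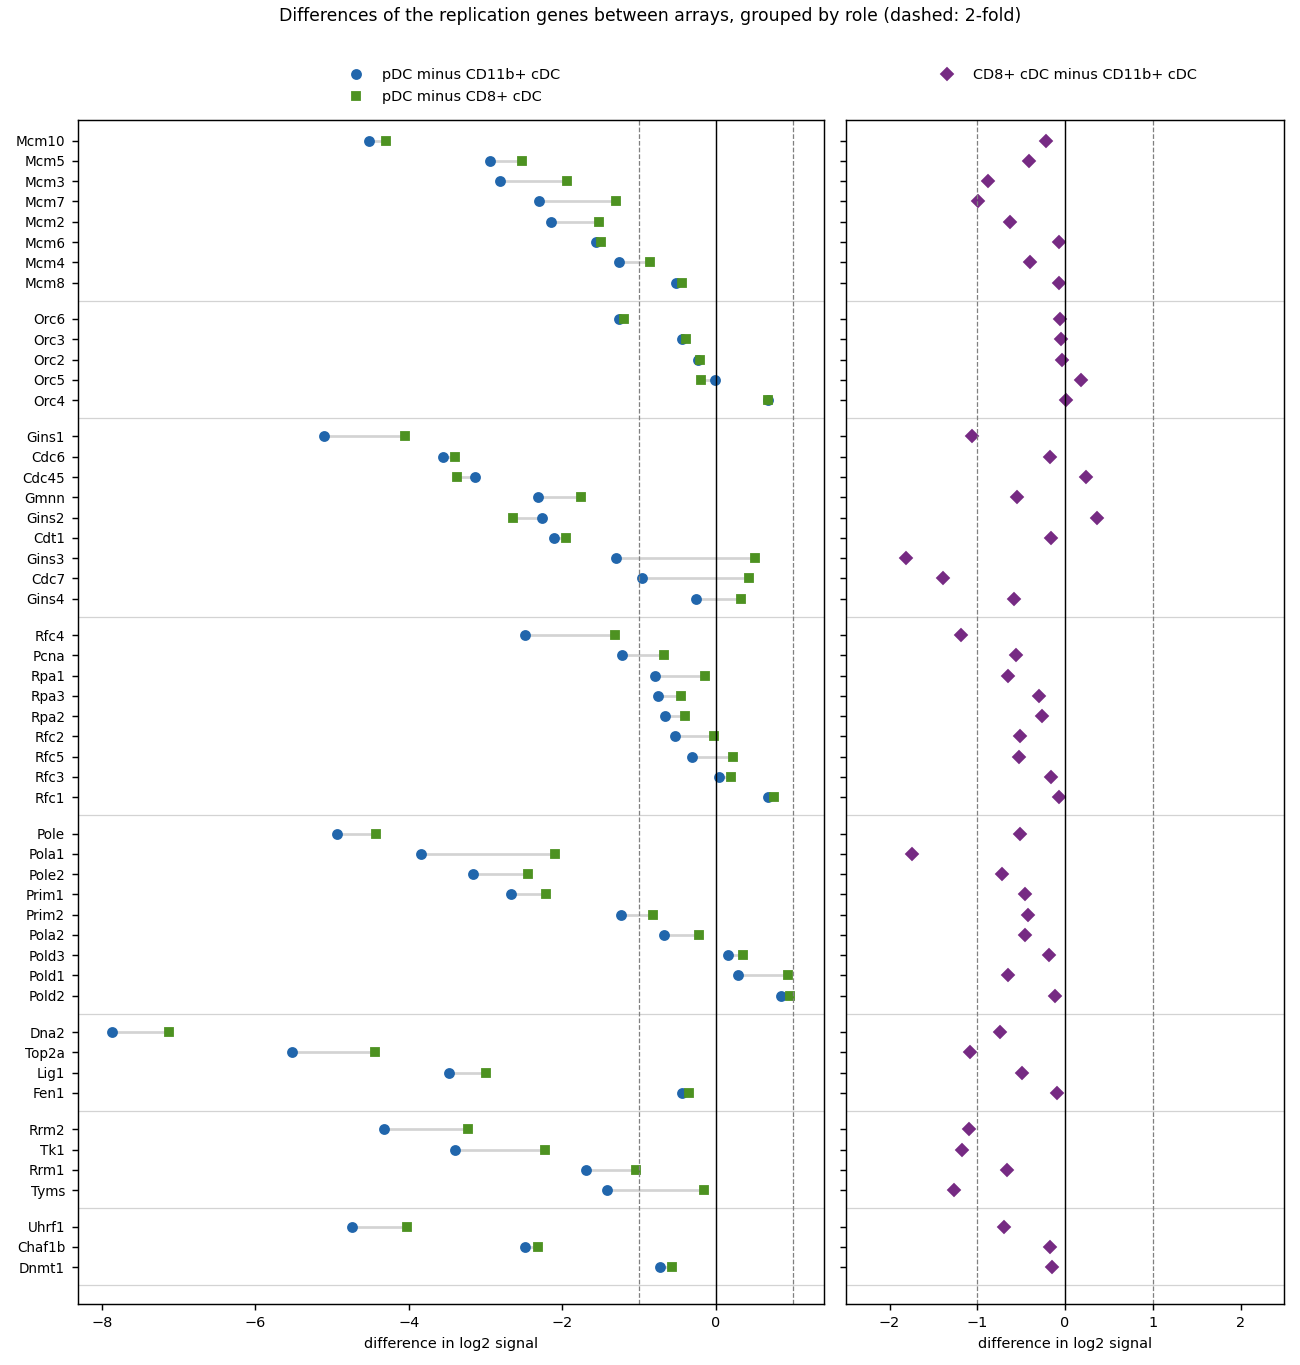
Difference in log2 signal of each measured member, grouped by role from the MCM genes at the top to the chromatin genes at the bottom, with pDC minus CD11b+ cDC as circles and pDC minus CD8+ cDC as squares on the left and CD8+ cDC minus CD11b+ cDC (diamonds) on the right, with dashed lines at 2-fold. On the left, 31 circles and 26 squares lie beyond the line on the lower side and 0 beyond it on the higher side. On the right, 9 diamonds pass the lower line, led by Gins3 and Pola1.

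Of the 9 polymerase and primase genes, 5 (55.6%) were lower in pDC than in CD11b+ cDC and 4 (44.4%) than in CD8+ cDC. The shares of all measured genes were 14.3% and 14.8%. The polymerase and primase genes split by enzyme. Pole, the catalytic subunit of the leading-strand polymerase epsilon, lay at background in pDC (87.8) and gave 2390.5 in CD8+ cDC and 3404 in CD11b+ cDC. It was at least 21.5-fold lower in pDC than in CD8+ cDC and at least 30.6-fold lower than in CD11b+ cDC, and Pole2, its second subunit, 5.47-fold and 8.98-fold. Polymerase delta, which extends the lagging strand and also fills gaps in DNA repair, had 0 of its 3 genes called. Pold1, its catalytic subunit, gave 28864 in pDC, 15027.5 in CD8+ cDC and 23622 in CD11b+ cDC, Pold2 9767 in pDC, 5037 in CD8+ cDC and 5418 in CD11b+ cDC and Pold3 27099 in pDC, 21313 in CD8+ cDC and 24228 in CD11b+ cDC. At these probe sets the pDC signal was the highest of the 3 for each, by up to 1.94-fold for Pold2 over CD8+ cDC. The other probe sets of Pold3 did not repeat this, with 18075 in pDC, 16756 in CD8+ cDC and 18772 in CD11b+ cDC at the second and 1440.1 in pDC, 2111 in CD8+ cDC and 2349 in CD11b+ cDC at the third. The dimmer probe set of Pold1 (7648 in pDC, 3320.0 in CD8+ cDC and 7454 in CD11b+ cDC) passed 2-fold, at 2.3-fold over CD8+ cDC.

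Of these, the 4 priming genes were called to unequal degrees, Pola1 and Prim1 lower in pDC than in either conventional subset and Prim2 lower than in CD11b+ cDC. Pola1, the catalytic subunit of polymerase alpha, gave 623 in pDC, 2673 in CD8+ cDC and 8907 in CD11b+ cDC. Prim1, the catalytic primase subunit, gave 1506 in pDC, 6958 in CD8+ cDC and 9592 in CD11b+ cDC, and Prim2 1451 in pDC, 2554 in CD8+ cDC and 3421 in CD11b+ cDC. Pola2, the accessory subunit, differed 1.61-fold from CD11b+ cDC and 1.17-fold from CD8+ cDC and was not called. Pola1 was also 3.33-fold lower in CD8+ cDC than in CD11b+ cDC, the second largest difference of any member between the conventional subsets.

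Of the clamp, clamp loader and single-strand binding genes, 2 of 9 (22.2%) were lower in pDC than in CD11b+ cDC and 1 of 9 (11.1%) than in CD8+ cDC, near the 14.3% and 14.8% of all measured genes. Pcna, the sliding clamp, gave 50126 in pDC, 80138 in CD8+ cDC and 117804 in CD11b+ cDC, 2.35-fold lower in pDC than in CD11b+ cDC, while the 1.6-fold difference from CD8+ cDC did not reach the rule. Rfc4 was the clamp loader subunit that stood apart, with 1019 in pDC, 2528 in CD8+ cDC and 5739.8 in CD11b+ cDC. Rfc1, the large subunit, stood 1.69-fold above CD8+ cDC and 1.6-fold above CD11b+ cDC in pDC and was not called. At the probe sets with the highest mean, Rfc2, Rfc3 and Rfc5 stayed within 1.45-fold. The other Rfc3 probe set was 1.53-fold lower in pDC than in CD8+ cDC, below the rule. The 3 replication protein A genes, whose product coats single-stranded DNA in replication and repair, differed from CD11b+ cDC by 1.58-fold to 1.75-fold on the lower side, with log2 differences from -0.80 to -0.66 at the brightest probe sets, and were not called. The second probe sets of Rpa1 and Rpa2 were past the rule, at 2.15-fold and 2.21-fold lower in pDC than in CD11b+ cDC.

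Of the 4 genes of Okazaki fragment processing and untangling, 3 (75.0%) were lower in pDC than in either conventional subset. The same rule called 14.3% of all measured genes lower than in CD11b+ cDC and 14.8% lower than in CD8+ cDC. Fen1, the flap nuclease that trims Okazaki fragments, gave 30929.8 in pDC, 39474 in CD8+ cDC and 42081 in CD11b+ cDC and was not called. Lig1, the ligase that seals the fragments, gave 1332 in pDC, 10603 in CD8+ cDC and 14900.1 in CD11b+ cDC, 11.2-fold and 7.96-fold lower in pDC than in CD11b+ and CD8+ cDC. Dna2, a nuclease and helicase that cuts long flaps, gave 246 in pDC, 34234 in CD8+ cDC and 57275 in CD11b+ cDC, 233-fold lower in pDC than in CD11b+ cDC and 139-fold lower than in CD8+ cDC. Its other probe sets gave smaller differences, at least 33.7-fold and at least 2.17-fold against CD11b+ cDC. Top2a, the topoisomerase that untangles replicated chromosomes and is present mainly in dividing cells, gave 896 in pDC, 19409 in CD8+ cDC and 41156 in CD11b+ cDC, with 45.9-fold and 21.7-fold in the same order. The dimmer Top2a probe set differed 2.43-fold from CD11b+ cDC and 1.56-fold from CD8+ cDC, so the sizes for Dna2 and Top2a depend on the probe set.

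The 4 deoxynucleotide synthesis genes of the list were all at least 2-fold lower in pDC than in CD11b+ cDC, against 14.3% of measured genes. In the comparison with CD8+ cDC, 3 of the 4 were lower, against 14.8%. Rrm2, the small subunit of ribonucleotide reductase made in S phase, gave 1739 in pDC, 16296 in CD8+ cDC and 34735 in CD11b+ cDC, and its 3 probe sets read 17.6-fold to 26.1-fold lower in pDC than in CD11b+ cDC. Rrm1, the large subunit, gave 7914 in pDC, 16285 in CD8+ cDC and 25748 in CD11b+ cDC, 3.25-fold lower in pDC than in CD11b+ cDC and 2.06-fold lower than in CD8+ cDC. Tk1, the thymidine salvage kinase of dividing cells, gave 559 in pDC, 2624 in CD8+ cDC and 5894 in CD11b+ cDC. Tyms, thymidylate synthase, was seen by 1 of 4 probe sets and gave 138 in pDC, 153 in CD8+ cDC and 369 in CD11b+ cDC, called against CD11b+ cDC at 2.68-fold. Its pDC and CD8+ cDC signals stood near the background level of 111.

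Of the genes that act on chromatin behind the fork, Uhrf1, which reads half-methylated DNA and recruits the maintenance methyltransferase, gave 909.8 in pDC, 14889 in CD8+ cDC and 24236 in CD11b+ cDC. Chaf1b, a subunit of the histone chaperone CAF-1, gave 218 in pDC, 1085 in CD8+ cDC and 1219.9 in CD11b+ cDC. Dnmt1, the methyltransferase that Uhrf1 recruits, gave 8951 in pDC, 13379.7 in CD8+ cDC and 14851 in CD11b+ cDC. Uhrf1 was therefore 26.6-fold lower in pDC than in CD11b+ cDC, whereas Dnmt1 differed 1.66-fold and was not called. All 3 measured Dnmt1 probe sets stood at 1.63-fold to 1.69-fold.

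Between the conventional subsets the differences were small but ran one way. Of 51 members, 9 were at least 2-fold lower in CD8+ cDC than in CD11b+ cDC and 0 higher, where the rule called 10.3% of 10707 measured genes lower and 9.86% higher. The count of 9 is 17.6%. Below 0 stood 47 of 51 members, against 48.3% of measured genes, with a median log2 difference of -0.46 (interval -0.58 to -0.22) against 0.01 for all. The called members were Gins3 (3.5-fold), Pola1 (3.33-fold), Cdc7 (2.62-fold), Tyms (2.4-fold), Rfc4 (2.27-fold), Tk1 (2.25-fold), Rrm2 (2.13-fold), Top2a (2.12-fold) and Gins1 (2.08-fold). Gins2 (log2 difference 0.37), Cdc45 (0.24), Orc5 (0.18) and Orc4 (0.01) were the 4 members above 0. None of the 8 MCM genes was called, although all 8 lay below 0.

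The size of these differences depends on how the arrays are scaled. The hybridization spike-ins, controls for the hybridization step with 18 probe sets, read higher in CD8+ than in CD11b+ cDC by 0.99 (mean log2). They read lower in pDC than in CD8+ cDC by 0.64. Scaling the arrays on them moved the median of all measured genes to -0.95 for CD8+ minus CD11b+ cDC, to 0.65 between pDC and CD8+ cDC and to -0.30 between pDC and CD11b+ cDC. Members called lower were then 47 for CD8+ minus CD11b+ cDC, with 45.4% of all genes lower and 3.88% higher. For pDC minus CD8+ cDC, 20 of 50 members were lower and 6 higher, with 9.73% of all genes lower and 33.7% higher. The 6 were Pold2, Pold1, Rfc1, Orc4, Gins3 and Cdc7, and Mcm2, Mcm6, Mcm7, Orc6, Rfc4 and Rrm1 lost their call. For pDC minus CD11b+ cDC, 37 were lower and 0 higher. In that scaling the member median stood 0.51 below the median of all genes for the conventional subsets and 1.13 and 1.43 below it for pDC against CD8+ and CD11b+ cDC.

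A second probe set above background gave a check within the arrays for 31 members. It called 17 of the 19 members that the brightest called in pDC against CD11b+ cDC in the same direction and 0 in the opposite one, and 13 of 16 against CD8+ cDC with 0 opposite. Over all measured genes the second probe set repeated 955 of 1410 calls (3 opposite) and 995 of 1499 (5 opposite). Gins3 and Cdc45 were the 2 not repeated against CD11b+ cDC, and Cdc45, Top2a and Rrm1 the 3 against CD8+ cDC. Between the conventional subsets the second probe set repeated 570 of 969 calls over all measured genes, with 4 opposite. Of the members' calls it repeated 1 of 5, that of Rfc4, so single differences there are uncertain. It called others that the brightest had not: 6 for CD8+ minus CD11b+ cDC (Dna2, Orc3, Pold1, Rpa2, Rrm1 and Uhrf1, each lower in CD8+ cDC), 2 lower in pDC than in CD11b+ cDC (Rpa1 and Rpa2) and 4 between pDC and CD8+ cDC (Mcm4 and Orc2 lower in pDC, Orc4 and Pold1 higher). The SD of the difference between both probe sets' log2 values was 1.16 for each pDC comparison and 0.47 for CD8+ minus CD11b+ cDC, against 0.86, 0.91 and 0.75 over all 4966 genes with 2 such probe sets.

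**Figure D3:**
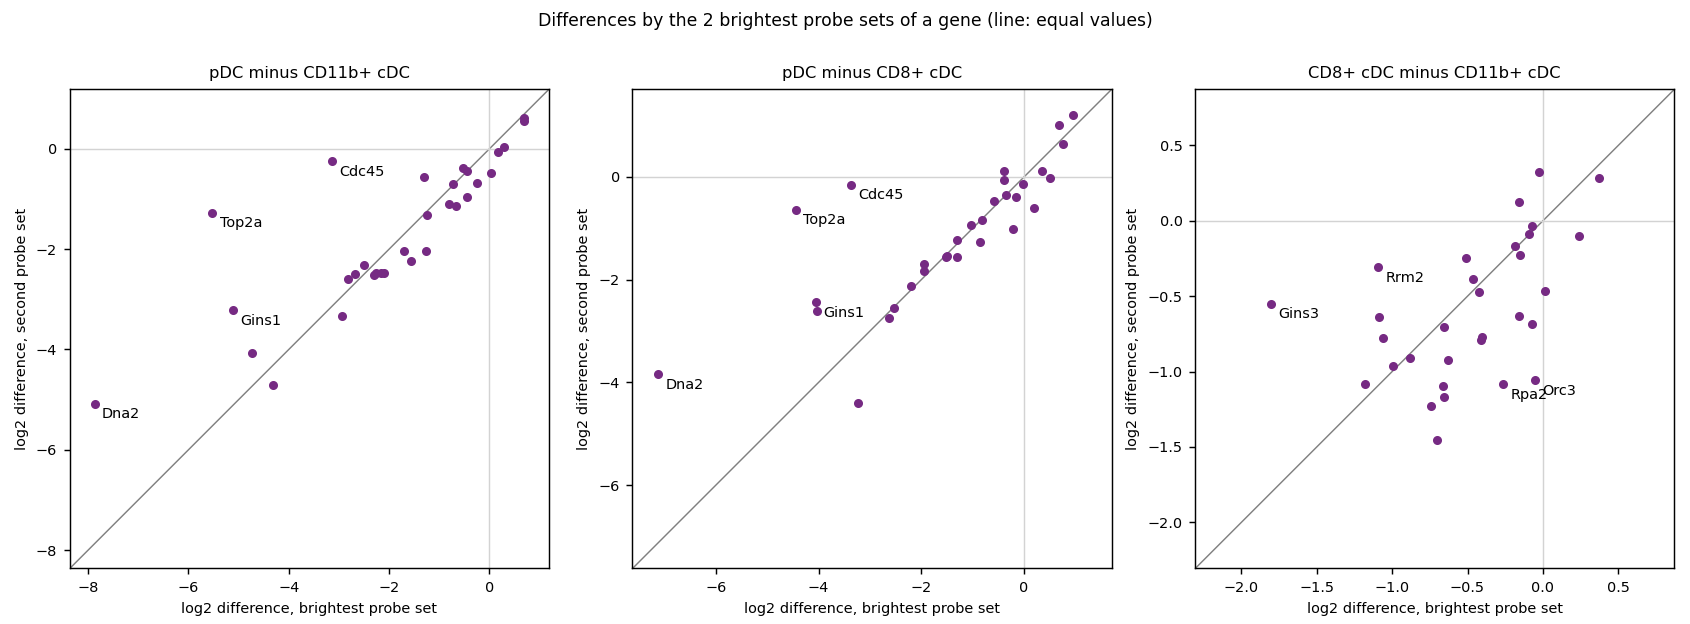
Log2 difference by the second brightest probe set (vertical axis) against that by the brightest (horizontal axis) for the 31 members with both above background, 1 panel per pair of arrays, with the line of equal values. In both pDC panels most points lie near the line, and Top2a, Cdc45, Dna2 and Gins1 stand above it, their second probe set giving the smaller difference.

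Other genes of the same processes, listed by function, followed the members in part. Of 14 measured licensing and firing genes outside the list, 6 (42.9%) were lower in pDC than in CD11b+ cDC and 4 (28.6%) than in CD8+ cDC. None was higher in either, with medians of -0.69 and -0.49. The shares of all measured genes called lower were 14.3% and 14.8%. Dtl, the adaptor that marks Cdt1 for destruction, gave 442 in pDC, 5417 in CD8+ cDC and 7491 in CD11b+ cDC at its probe set with the highest mean, though 2 of its other probe sets were 2.26-fold and 2.76-fold higher in pDC than in CD8+ cDC. Wdhd1, which ties polymerase alpha to the helicase, gave 556 in pDC, 4697 in CD8+ cDC and 5093.5 in CD11b+ cDC. Ticrr, the firing factor also called Treslin, lay at background in pDC (76.5), with 587 in CD8+ cDC and 957 in CD11b+ cDC. Fbxo5, the inhibitor of the anaphase-promoting complex that protects Geminin, was 3.18-fold lower in pDC than in CD11b+ cDC.

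Of 19 other fork genes, 9 (47.4%) were lower in pDC than in CD11b+ cDC and 0 higher (median -0.96). Against CD8+ cDC, 7 (36.8%) were lower in pDC and 1 higher (median -0.51). The shares of all measured genes called lower were 14.3% and 14.8%, and 16.0% were higher in pDC than in CD8+ cDC. Dscc1, part of an alternative clamp loader for sister chromatid cohesion, gave 147.5 in pDC, 3983 in CD8+ cDC and 4819 in CD11b+ cDC. Clspn, the checkpoint mediator Claspin, gave 257 in pDC, 1725 in CD8+ cDC and 2837 in CD11b+ cDC, and the cohesin acetyltransferase gene Esco2 154 in pDC, 1525 in CD8+ cDC and 1551 in CD11b+ cDC. Atad5, which unloads the clamp, was 8.27-fold and 3.56-fold lower in pDC than in CD11b+ and CD8+ cDC, which its dimmer probe set (1.07-fold and 1.22-fold) did not repeat. The 1 higher gene was Pole4, a histone-fold subunit of polymerase epsilon, at 2.13-fold over CD8+ cDC, with 10244.5 in pDC, 4819 in CD8+ cDC and 8065 in CD11b+ cDC. Its other probe set did not repeat the call, with 5984.5 in pDC and 6069 in CD8+ cDC. Pole and Pole2 thus differed strongly between pDC and both conventional subsets, whereas Pole3 (in pDC 1.25-fold above CD11b+ cDC and 1.84-fold above CD8+ cDC, not called) and Pole4, which also belong to chromatin complexes, were not lower. Pole3 was named after its values were seen. Of 8 other chromatin genes, Asf1b (380.3 in pDC, 3426 in CD8+ cDC and 5744 in CD11b+ cDC) and Hells (1218 in pDC, 23319.5 in CD8+ cDC and 6247 in CD11b+ cDC) were the 2 called lower in pDC in each comparison. The 2 of 8 are 25.0%, against 14.3% of all measured genes for CD11b+ cDC and 14.8% for CD8+ cDC. Hells, a chromatin remodeller that aids DNA methylation, was 3.73-fold higher in CD8+ than in CD11b+ cDC.

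**Figure D4:**
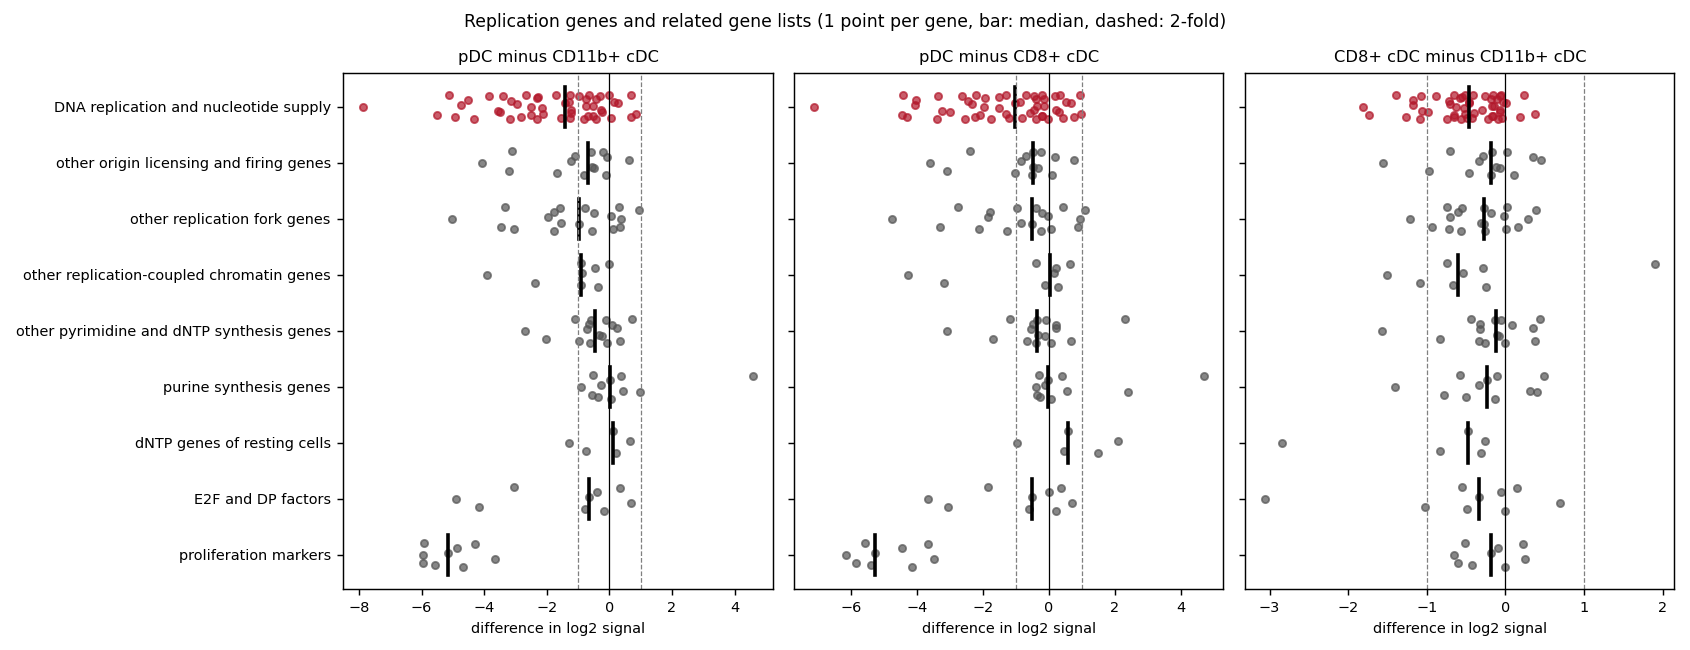
Difference in log2 signal of each measured gene (points) in the replication list and in 8 related lists, with the median as a bar and dashed lines at 2-fold, for pDC minus CD11b+ cDC, pDC minus CD8+ cDC and CD8+ cDC minus CD11b+ cDC. The proliferation markers lie furthest to the left in both pDC panels, with medians of -5.15 and -5.26, and the purine synthesis genes centre near 0.

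Genes of pyrimidine and deoxynucleotide supply outside the list were called at a share near that of all measured genes. Of 16 measured, 3 (18.8%) were lower in pDC than in CD11b+ cDC, against 14.3% of all, and 3 (18.8%) than in CD8+ cDC, against 14.8%, with medians of -0.46 and -0.35. They were Mthfd2, Dut and Umps in each. Mthfd2, the mitochondrial folate enzyme, gave 3339.5 in pDC, 28441 in CD8+ cDC and 21844 in CD11b+ cDC, Dut, which removes dUTP, 7050.4 in pDC, 22723 in CD8+ cDC and 28498 in CD11b+ cDC, and Umps, which makes UMP, 2524 in pDC, 5754 in CD8+ cDC and 5462 in CD11b+ cDC. The other 2 probe sets of Umps stood 1.98-fold and 1.09-fold lower in pDC than in CD11b+ cDC and were not called there. Ctps2, a CTP synthase, was 4.94-fold higher in pDC than in CD8+ cDC. Among the genes known for keeping deoxynucleotide pools in resting cells, Rrm2b, the small reductase subunit that works outside S phase, was brightest in pDC, with 26164 in pDC, 9248 in CD8+ cDC and 16435 in CD11b+ cDC. It was 2.83-fold higher in pDC than in CD8+ cDC and stood 1.59-fold above CD11b+ cDC, which was not called, whereas Rrm2 was 9.37-fold and 20.0-fold lower. Slc29a1, a nucleoside transporter, gave 932 in pDC, 219 in CD8+ cDC and 1571 in CD11b+ cDC. It was 4.25-fold higher in pDC than in CD8+ cDC but brightest in CD11b+ cDC. Samhd1, which degrades deoxynucleotides, was 2.44-fold lower in pDC than in CD11b+ cDC. Tk2 and Dguok of this list were not called in any pair.

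The E2F factors themselves differed by member. E2f1, an activator, gave 2161 in pDC, 1342.5 in CD8+ cDC and 1697 in CD11b+ cDC, and E2f3 3593.5 in pDC, 3610.4 in CD8+ cDC and 2243 in CD11b+ cDC, neither of which was called. E2f2, the third activator, gave 663 in pDC, 2386 in CD8+ cDC and 19935 in CD11b+ cDC and was 30.1-fold lower in pDC than in CD11b+ cDC and 8.36-fold lower in CD8+ than in CD11b+ cDC, and its second probe set gave 27-fold and 9.89-fold. The repressors of late S phase E2f7 and E2f8, themselves E2F targets, were lower in pDC: E2f8 gave 487.5 in pDC, 6185.5 in CD8+ cDC and 8704 in CD11b+ cDC, and E2f7 lay at background in pDC (75.2) with 923 in CD8+ cDC and 919.6 in CD11b+ cDC. Of the 9 measured E2F and DP genes, 3 (33.3%) were lower in pDC in each comparison and 0 higher. Of all measured genes, 14.3% were lower in pDC than in CD11b+ cDC and 14.8% than in CD8+ cDC.

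All 9 measured proliferation markers were lower in pDC than in either conventional subset, by a median of -5.15 (log2) against CD11b+ cDC and -5.26 against CD8+ cDC. The shares of all measured genes called lower were 14.3% and 14.8%. Ccnb2, a mitotic cyclin, gave 133 in pDC, 9505.5 in CD8+ cDC and 8173 in CD11b+ cDC, and Ccna2, the cyclin of S phase and G2, gave 173.5 in pDC, 6640.5 in CD8+ cDC and 10469.5 in CD11b+ cDC. Between the conventional subsets 0 of the 9 were called (median -0.18), Ccnb2 and Tpx2 standing 1.16-fold and 1.19-fold higher in CD8+ cDC. There the rule called only 10.3% of all measured genes lower in CD8+ cDC and 9.86% higher, so 0 among 9 genes says little.

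Markers of other cells also differed between the arrays. The 7 neutrophil markers with a probe set (of 8 listed) summed to a signal of 2669 in pDC, 1379 in CD8+ cDC and 17149 in CD11b+ cDC. The 7 of 8 macrophage and monocyte markers summed to 34189, 86773 and 198039 in the same order. Both sums, like most members, were highest in CD11b+ cDC, and their part in the members' differences was not tested. The macrophage sum was lowest in pDC, as most members were, and the neutrophil sum was lowest in CD8+ cDC. The plasma cell list (7 of 7) and the NK cell list (6 of 7) were instead brightest in pDC. The plasma cell markers summed to 185613 in pDC, 50224 in CD8+ cDC and 69236 in CD11b+ cDC, with Mzb1 at 47739 in pDC, 89.2 in CD8+ cDC and 249 in CD11b+ cDC and with Tnfrsf17 at background on every array. Most of the pDC sum was Xbp1 (120877 in pDC, 47953.5 in CD8+ cDC and 42657 in CD11b+ cDC). Xbp1, Mzb1 and Sdc1 were brightest in pDC, whereas Jchain (7870 in pDC, 14060 in CD11b+ cDC), Irf4 and Prdm1 were brightest in CD11b+ cDC. The NK cell markers summed to 96903 in pDC, 5079 in CD8+ cDC and 84410 in CD11b+ cDC, nearly all of it Klrd1, with Ncr1, Eomes and Prf1 at background on every array. The part of these lists in the members' differences was not tested either. The 6 erythroid markers of 8 summed to 18744, 13750 and 20532, with Hba-a1 at background throughout. The 6 T cell markers of 8 summed to 5419, 746 and 3139, and Cd3e, Cd3d, Cd3g and Bcl11b lay at background on every array. Most of the pDC sum was Cd28 (4830 in pDC), and most of the CD11b+ cDC sum was Cd5 (2832 in CD11b+ cDC). The 7 B cell markers of 8 summed to 10674, 19874 and 15871, and Cd79a, Ebf1, Pax5 and Fcer2a lay at background on every array, although Ms4a1 read 223 in pDC, 19147 in CD8+ cDC and 11046.5 in CD11b+ cDC. Cd79b ran the other way, with 10103 in pDC, 381 in CD8+ cDC and 4025.5 in CD11b+ cDC, and was nearly all of the pDC sum. Each subset's own marker list had its highest sum on the array of that name: 980972 in pDC for the 9 measured pDC markers (23892 in CD8+ cDC and 32916 in CD11b+ cDC), 1065637 in CD8+ cDC for the 7 CD8+ cDC markers (115358 in pDC and 268571 in CD11b+ cDC) and 318747 in CD11b+ cDC for the 6 CD11b+ cDC markers (65820 in pDC and 9571 in CD8+ cDC). Single markers did not all follow. Cd209a, listed for CD11b+ cDC, was brightest in pDC with 21544, against 100.4 in CD8+ cDC and 8649.8 in CD11b+ cDC, and Sirpa read 36974 in pDC, 2545 in CD8+ cDC and 78989 in CD11b+ cDC. Cd8a read 32230.5 in pDC, 203567 in CD8+ cDC and 702 in CD11b+ cDC.

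Genes above background numbered 10336 in pDC, 10390 in CD8+ cDC and 10403 in CD11b+ cDC. The ratio of 3′ to 5′ control probe sets, which grows as RNA is shortened, was 5.71 for Actb in pDC, 4.08 in CD8+ cDC and 2.91 in CD11b+ cDC, and 16.2, 17.6 and 9.68 for Gapdh. The Actb ratio was highest in pDC, where most members were dimmest, and its part in the differences was not tested.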

How the data were processed

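Each sample was 1 Affymetrix array of RNA pooled from sorted spleen cells, 3 arrays in all. The authors deposited 1 linear intensity per probe set, made with MAS5 per the submitters' processing notes; its settings are not given in the sources used here. The columns' distributions were nearly equal, so an unstated equalising step cannot be told apart from like samples.

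Of 45101 probe sets, 34958 name 1 gene, 932 several and 9211 none in the platform annotation; 34754 were found by gene number in RefSeq's table, and those with several genes were left out. The background level (111) is the 95th percentile of 87 probe sets for receptors of smell, pheromones, trace amines and taste. Values below it were set to it before log2, and a gene was read at its probe set with the highest mean. Scripts in Python 3.11.15 (pandas 2.3.3, numpy 2.4.6) were tested on simulated data. With 1 array per type no test was possible, and the number of arrays limits the precision.

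The members and lists were chosen with earlier results of these data known, and the grouping into protein complexes was made after the values were seen. Any member could be named; of each related list, up to 4 called genes per direction with the largest difference and genes going against the rest. Scaling, background, filter, probe set and fold were varied.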

Additional observations from a re-analysis of the deposited data

How the results depend on the processing

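For pDC minus CD11b+ cDC the count of members called lower stayed between 28 and 37 (31 as reported) over the alternative scalings, background levels, filters and probe set rules. Counts moved by over 1.5 times in these cases. Scaling on the spike-ins gave 47 members lower in CD8+ than in CD11b+ cDC (median -1.46) and 6 higher in pDC than in CD8+ cDC. Members higher in pDC than in CD8+ cDC were also 1 with the median of probe sets, 2 with the second brightest, 2 with plain-suffix probe sets and 4 at 1.5-fold, and at 1.5-fold 3 were higher in pDC than in CD11b+ cDC. For CD8+ minus CD11b+ cDC, 18 were lower at 1.5-fold, 2 at 3-fold and 0 at 4-fold, and 17 were lower in pDC than in CD8+ cDC at 4-fold. The changes with the fold follow from the rule itself, and for the others the cause was not tested. No member called in the reported setting changed sign in any alternative. No paired analysis was possible because each subset has 1 array, and no array could be left out.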

Other observations

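Purine synthesis, which supplies RNA, ATP and DNA alike, did not share the direction of the replication genes. Of 11 measured genes, 0 were lower in pDC than in either conventional subset, with median log2 differences of 0.01 against CD11b+ cDC and -0.03 against CD8+ cDC. Of all measured genes, 14.3% were lower in pDC than in CD11b+ cDC and 14.8% than in CD8+ cDC. These are the probe sets with the highest mean. A dimmer Ppat probe set was 2.92-fold lower in pDC than in CD8+ cDC, and a dimmer Gmps probe set was 2.17-fold higher. Adssl1, an adenylosuccinate synthase known from muscle, gave 22119 in pDC, 853.0 in CD8+ cDC and 919 in CD11b+ cDC, 25.9-fold and 24.1-fold higher in pDC. Prps2, a synthase of the ribose donor of nucleotides, gave 124764 in pDC, 23532 in CD8+ cDC and 62617 in CD11b+ cDC, 5.3-fold higher in pDC than in CD8+ cDC and 1.99-fold, below the rule, than in CD11b+ cDC. The dimmer Prps2 probe sets stood 2.52-fold and 1.76-fold above CD8+ cDC in pDC. Impdh1 lay at background on every array, and Impdh2 is not analysed here.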
